A study of Mus musculus with 2 samples.

Results

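The collagen genes, taken as every array probe for a transcript whose gene name has the form of a collagen alpha chain (Col, a type number, the letter a and a chain number), were compared between dorsal root ganglion (DRG) samples of Dock8+/- and Dock8-/- mice. They comprised 44 genes of the 37074 gene names on the array and 91 probes of 56601. Each gene was represented by its brightest probe free of GA or GAA repeats, and all its probes were then examined. By structural class, 11 of the genes encode fibrillar chains, 8 basement membrane chains and 25 chains of other kinds.

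Both groups were C57BL/6 mice with the AND transgene for a T cell receptor, which gives CD4 T cells a single antigen specificity, and each group was 1 array. The control was heterozygous for Dock8 (Dock8+/-), a guanine nucleotide exchange factor known for its role in the migration of leukocytes, and was described as having a low level of IL-31, an itch-inducing cytokine of T cells. The Dock8-/- group was described as having a high level of IL-31. Age, sex, the number of ganglia or animals behind each RNA, and how neurons were separated from the ganglion are not given in the sources used here. The control carries a mutant Dock8 allele as well, so no array shows the level in wild-type mice. With 1 array a group, no difference below has a replicate check, and no p-value was computed.

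Collagens are extracellular proteins built from 3 alpha chains wound into a triple helix, with glycine at regular steps along each chain. Fibrillar collagens form the cables of connective tissue, type IV collagen forms the sheet of basement membranes, and the remaining kinds decorate fibrils, form beaded filaments or small networks, or are anchored in cell membranes. In a ganglion, fibrillar collagens are known mainly from the fibroblasts of the capsule and the endoneurium. Basement membranes there surround vessels and the glia that wrap neurons and axons.

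The repeating glycine can be read in the probes themselves. A probe was taken as coding for the triple helix when at least 6 glycine codons (GGN) stood 9 bases apart without a break, which held for 4 of the 91 collagen probes (4.4%) and for 4 of the 56514 other probes scanned (0.00708%; the scan included 4 probes that outlier flags removed from an array and that are not among the 56601). These 60-base probes are printed because they show the stretch of the transcript that was measured, with the glycine codons in capitals.
Col15a1: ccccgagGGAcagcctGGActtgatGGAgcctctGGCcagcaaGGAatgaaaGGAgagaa
Col6a3: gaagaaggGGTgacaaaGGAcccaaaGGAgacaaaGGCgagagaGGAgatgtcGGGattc
Col5a3: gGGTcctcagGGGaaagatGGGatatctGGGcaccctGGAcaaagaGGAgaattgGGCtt
Col11a2: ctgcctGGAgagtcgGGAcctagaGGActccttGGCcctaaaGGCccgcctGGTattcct
On mouse build mm9, as the files give it, the Col15a1 probe lies at chr4:47283786-47283845 on the plus strand. The Col6a3 probe at chr1:92689602-92690594 and the Col5a3 probe at chr9:20590066-20590795 lie on the minus strand, and that of Col11a2 at chr17:34189287-34189453 on the plus strand. The last 3 cover more genome than 60 bases, so each spans a splice junction. Whether the other probes lie in exons or UTRs was not analysed here.

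Values are processed intensities, which carry no unit, and differences are log2 Dock8-/- minus Dock8+/- after each array was scaled to the 75th percentile of its probes. That percentile was 303.8 in Dock8+/- and 145.6 in Dock8-/-, so equal scaled levels correspond to a lower intensity in the latter. A gene counted as measured when the scanner software flagged its brightest repeat-free probe as well above background in both genotypes. This held for 33 of the 44 collagen genes and for 18575 genes in all. A further 4 were read on the Dock8+/- array only, Col13a1 differed between its probes, and 6 were above background on neither array (Col6a4, Col6a6, Col9a1, Col9a3, Col10a1 and Col19a1).

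Of the 33 measured collagen genes, 19 were at least 2-fold lower on the Dock8-/- array, where 7.06% of all measured genes were. At least 2-fold higher were 2, Col4a3 and Col28a1. That is 6.06%, near the 8.7% of all measured genes. In RNA of a whole cell preparation, fewer cells of a type and less RNA per cell cannot be told apart. In total 27 lay below 0 and 6 above it, where 48.4% of all measured genes lay below 0. The median difference was -1.11 for the collagens and 0.02 for all measured genes. At least 8-fold lower were 4 collagen genes, Col6a3, Col8a2, Col3a1 and Col6a2, against 0.215% of all measured genes. Just inside the 2-fold limit lay Col18a1 at -1.07 and just outside it Col5a3 at -0.92. Among measured genes whose mean signal was no lower than the median, 10 of 13 collagens were at least 2-fold lower, against 5.11% of all such genes. With spike-in scaling in place of the 75th percentile, the median of all genes itself was -1.83, and the collagen median was -2.96. On that scale no collagen gene lay above 0 (the highest, Col28a1, was at -0.59). Every collagen gene value above 0 given here is thus relative to the 75th percentile.

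**Figure D1:**
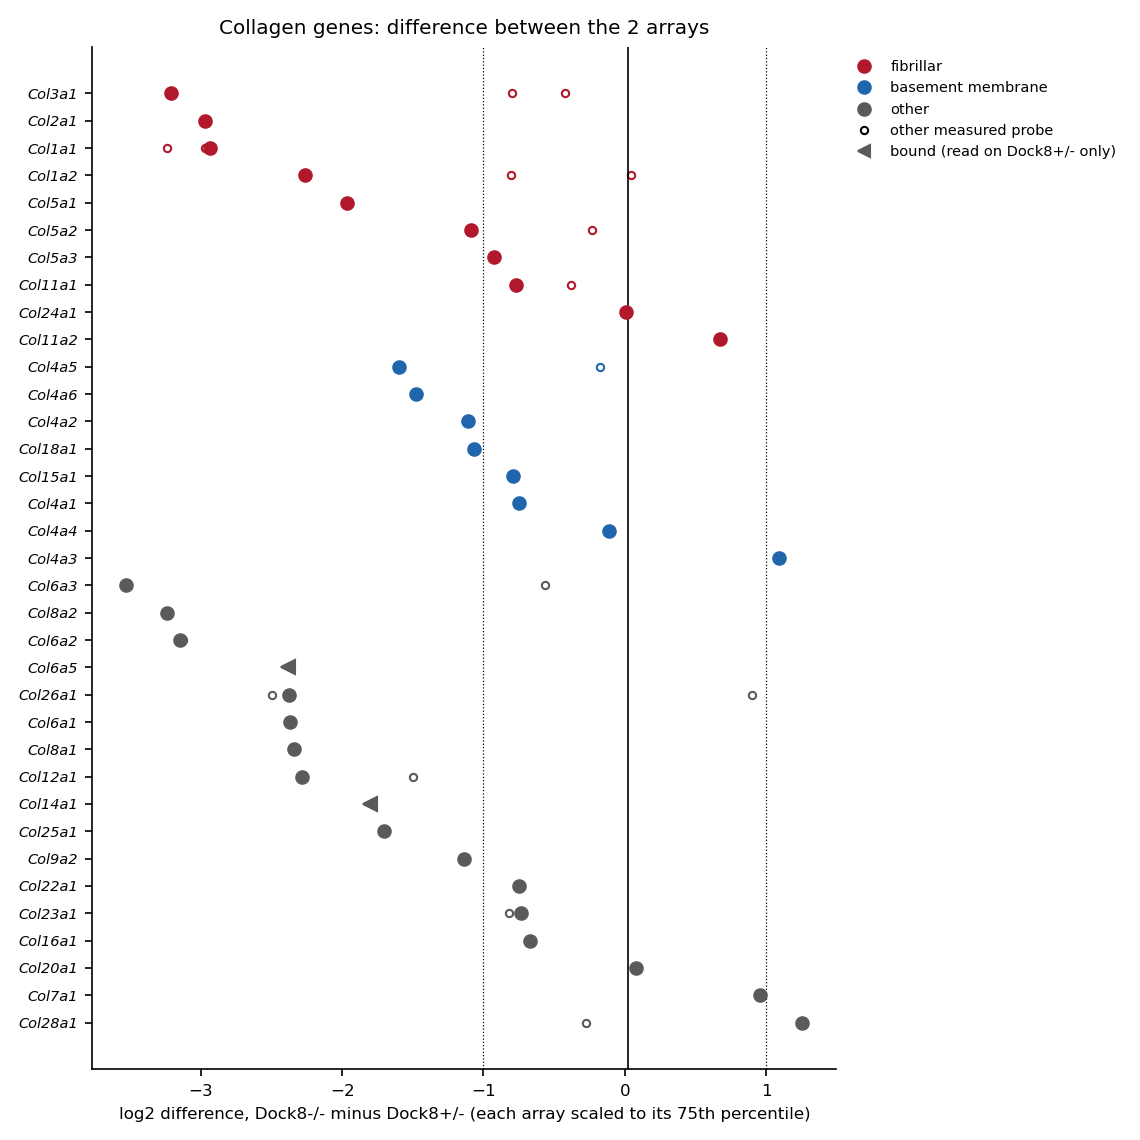
The log2 difference (Dock8-/- minus Dock8+/-, each array scaled to its 75th percentile) of each collagen gene, by class. Filled points are the brightest repeat-free probe, open points the other measured probes and triangles bounds for Col6a5 and Col14a1, which were read on the Dock8+/- array only. The solid line is the median of all measured genes and the dotted lines are 2-fold. Most points lie left of the solid line, from -3.53 for Col6a3 to 1.26 for Col28a1.

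Among the fibrillar collagens, 10 of 11 were measured, with a median of -1.53. A decrease of 2-fold or more was seen for 6 of these, against 7.06% of all measured genes. An increase of that size was seen for 0, against 8.7%. Type I collagen, the chief protein of tendon, dermis and nerve sheaths, is built from Col1a1 and Col1a2. Col1a1 had an intensity of 10007 in Dock8+/- and 626 in Dock8-/- (pairs of intensities are given in this order throughout), a difference of -2.94 (7.66-fold). Its probe was spotted 10 times per array, and the spots kept ranged from 9281 to 10786 on the former and from 588 to 658 on the latter (unscaled intensities). These ranges show the spread of repeat spots on an array only, not that between animals. Over the 3 measured Col1a1 probes, the difference ran from -3.24 to -2.94. Col1a2 was the brightest collagen, at 51491 and 5141, a difference of -2.26. Its dimmer probes, at 278 and 137 on the Dock8+/- array, gave -0.81 and 0.05.

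Col3a1, whose type III fibrils mix with type I in soft tissue, had intensities of 13846 and 717 and the lowest difference of the class, -3.21. The measured probe lies at chr1:45405589-45405648, and its dimmer probes gave -0.42 and -0.80. Type V chains sit inside type I fibrils and set their diameter. Col5a1 had 1220 and 149.7, a difference of -1.97. Col5a2 had 237 and 53.4, a difference of -1.09, and its other probe gave -0.23. Col5a3 had 1745 and 441, a difference of -0.92, by its brightest probe, while the helix probe printed above was dim, at 23.4 and, not well above background, 10.5. The 6 chains of types I, III and V thus all lay below 0, with a median of -2.11, and 5 of them were at least 2-fold lower. Markers of fibroblasts, the main makers of these chains, also lay below 0 where measured, by unequal amounts. Of 11 fibroblast markers, 11 were above background in Dock8+/- and 10 in Dock8-/-. Their summed scaled signal was 1112 and 416 (such sums, here and below, cover only the measured genes of a list). Their median was -1.52. At least 2-fold lower were 8 of 10 measured, against 7.06% of all measured genes, with Pi16 at -3.81 and Clec3b at -3.27. Pdgfra at -0.10 and Thy1 at -0.33 were less than 2-fold lower, and another Pdgfra probe gave 0.43. Dpt was the fibroblast marker not above background on the Dock8-/- array. The part of fibroblasts in the result was not tested.

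Col2a1 and the type XI chains are known from cartilage. Col2a1 had intensities of 802 and 49.0, a difference of -2.97. Col11a1 had 312 and 87.8, a difference of -0.77, with its other probe at -0.38. Col11a2 lay on the other side, at 50.3 and 38.5, a difference of 0.67, and its helix probe was above background on neither array. Col24a1, a minor fibrillar chain of bone, had 66.8 and 32.2, a difference of 0.01. Col27a1, known from growth plate cartilage, was above background on the Dock8+/- array only, at 25.7 against 4.32. That signal is below the level at which a bound on the fold can be given. Cartilage and bone markers, 7 of 10 above background in Dock8+/- and 5 in Dock8-/-, had a summed scaled signal of 17.9 and 6.50, but a median of -0.31 over 5 measured genes, and they did not share a direction. Comp was at -4.23 and Cilp at -2.45, whereas Acan was at -0.31, Sp7 at 0.76 and Sox9 at 1.88. Chad, at 262 against 5.64, and Matn3, at 46.4 against 6.04, were above background on the Dock8+/- array only. By bound, Chad was at least 7.79-fold lower and Matn3 at least 1.38-fold lower. Ibsp, Bglap and Runx2 were above background on neither array, and the part of such cells in the Col2a1 value was not tested.

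All 8 basement membrane genes were measured, with a median of -0.93. Lower by 2-fold or more were 4 (50%, against 7.06% of all measured genes), and 1 was higher by as much (12.5%, against 8.7%). Col4a1 and Col4a2 form the type IV network found in nearly every basement membrane. Col4a1 had intensities of 1156 and 329, a difference of -0.75, and Col4a2 had 639 and 142, a difference of -1.11. Col4a5 and Col4a6 join in a network known from smooth muscle and skin. Col4a5 had 221 and 34.9, a difference of -1.60, and its other probe gave -0.17. Col4a6 had 156 and 26.7, a difference of -1.48.

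Col4a3 and Col4a4 form, with Col4a5, the network of the kidney filter, and both were dim. Col4a3 had 42.3 and 43.2, a difference of 1.09 that became -0.76 under spike-in scaling. Col4a4 had 70.9 and 31.4, a difference of -0.11. A second Col4a4 probe, left out by the rule for repeats, had 33.9 and 55.6, a difference of 1.78. It holds a run of GA units (capitals), shown here within 20 of its bases because it sets that probe apart from the others.
Col4a4 repeat: cccactGAGAGAGAcactca
The remaining members, Col15a1 and Col18a1, carry heparan or chondroitin sulphate chains and lie at the outer face of basement membranes. Col18a1, the source of endostatin, had 1637 and 374, a difference of -1.07. Col15a1 had 225 and 62.4 on its helix probe, a difference of -0.79. The type IV genes lie as neighbouring pairs on 3 chromosomes, in the order of the RefSeq table of assembly GRCm38.p6. The values within a pair were -0.75 and -1.11 for Col4a1 and Col4a2, -1.60 and -1.48 for Col4a5 and Col4a6, and 1.09 and -0.11 for Col4a3 and Col4a4.

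The fibrillar median lay 0.60 below that of the basement membrane chains (a difference of -0.60). With the mean of a gene's measured probes it was -0.13, and with their median 0.03, so the order of these classes depended on the probe. The dimmer measured probes of Col1a2, Col3a1 and Col5a2 have no RefSeq mRNA accession. With the brightest probe that has one, an alternative chosen after seeing the data, it was -0.46. The ranges overlapped, from -3.21 to 0.67 for the fibrillar and from -1.60 to 1.09 for the basement membrane genes.

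Among the other collagens, 15 of 25 were measured, with a median of -1.70. Of these, 9 lay 2-fold or more below the control (60%, against 7.06% of all measured genes). As far above it lay 1 (6.67%, against 8.7%). Type VI collagen forms beaded filaments that link cells to fibrils and is abundant in endoneurium. Col6a1 had intensities of 7022 and 650 and a difference of -2.37. Col6a2, its neighbour on chromosome 10, had 1233 and 66.8, a difference of -3.14, and its other probe gave -3.12. Col6a3 had 1838 and 76.4, a difference of -3.53 (11.5-fold), the lowest of all collagen genes. The helix probe of Col6a3 printed above was much dimmer, at 116 and 37.7, and gave -0.56. All 3 measured type VI genes were therefore at least 2-fold lower, although Col6a3 was so by the brighter of its measured probes only. Col6a5 was above background on the Dock8+/- array only, at 176 against 5.75, and was at least 5.23-fold lower by the bound set by the dimmest readable signal. Such a bound reached 2-fold for 17.4% of all genes readable in Dock8+/- alone.

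Type VIII chains form a hexagonal network under endothelium. Col8a1 had 6191 and 585, a difference of -2.34, and Col8a2 had 1245 and 63.3, a difference of -3.24. Chains of the FACIT kind, which bind to the surface of fibrils, had a median of -0.75 over 5 measured genes of 9. Col12a1, a fibril-bound chain of dense connective tissue, had 1332 and 131, a difference of -2.28, and its other probe gave -1.497. Col9a2, known from cartilage, had 1015 and 221, a difference of -1.14. Col14a1, which binds fibrils together with decorin, had 125 and 17.1 and was at least 3.49-fold lower by bound. The other FACIT chains differed by less than 2-fold. They were Col16a1 with 3506 and 1055 (-0.67), Col22a1 with 152 and 43.4 (-0.75) and Col20a1 with 52.3 and 26.5 (0.08).

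The membrane-anchored Col25a1, a neuronal collagen, had 240 and 35.4, a difference of -1.70. Col23a1, of the same kind, had 233 and 67.2, a difference of -0.73, and its other probe gave -0.82. Col13a1 was read unequally, since its brightest probe had 129 and, not well above background, 18.8, whereas its second probe had 38.4 and 20.6, a difference of 0.16. Col17a1, the hemidesmosome collagen of skin, was above background on the Dock8+/- array only, at 20.9 against 10.98. Col26a1 had 462 and 42.6, a difference of -2.38. Its overlapping probe gave -2.50 and a dim probe elsewhere in the gene 0.90. Col7a1, which anchors epidermis to dermis, had 315 and 294, a difference of 0.96 and so just under 2-fold higher.

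Col28a1, a collagen known from peripheral nerve, was the highest of all, at 77.6 and 88.8, a difference of 1.26. Its other probe had 61.9 and 24.6 and gave -0.27, and spike-in scaling gave -0.59, so its direction rests on the probe and the scaling. Neither Col4a3 nor Col28a1 was bright. Their brightest probes are printed with the second Col12a1 probe (390 and 66.2), since each spans a splice junction and so reads spliced RNA.
Col4a3: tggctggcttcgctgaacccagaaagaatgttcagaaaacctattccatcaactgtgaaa
Col28a1: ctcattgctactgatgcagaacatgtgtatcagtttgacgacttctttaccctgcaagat
Col12a1: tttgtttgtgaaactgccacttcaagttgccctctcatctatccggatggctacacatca
On mm9 they span chr1:82714546-82715399 (plus strand), chr6:7963141-7964553 (minus strand) and chr9:79478530-79479319 (minus strand).

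**Figure D2:**
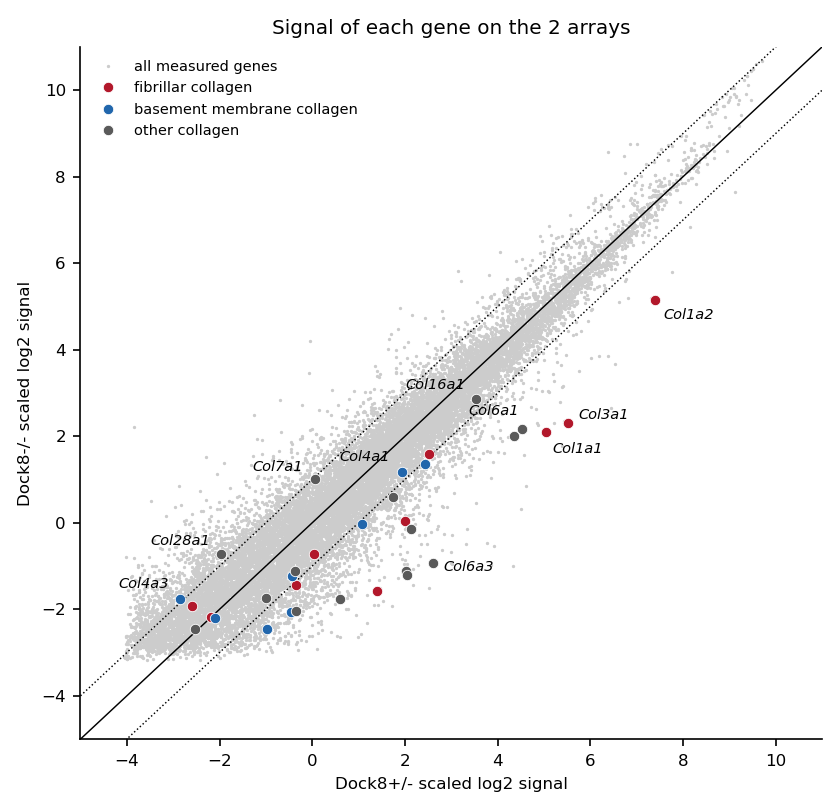
Scaled log2 signal of each measured gene on the Dock8+/- array (horizontal axis) and the Dock8-/- array (vertical axis). Grey points are all 18575 measured genes, coloured points the 33 collagens by class, the solid line marks equal levels and the dotted lines 2-fold. Bright collagens such as Col1a2, Col3a1 and Col6a3 lie below the lower dotted line, whereas Col16a1, also bright, lies between the dotted lines. Col4a3 and Col28a1 lie above the upper dotted line among dim genes.

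Brighter collagens differed more. At a Dock8+/- intensity of 1000 or above there were 15 collagen genes with a median of -2.28, of which 12 were at least 2-fold lower (6.27% of all measured genes that bright). Below 1000 there were 18 with a median of -0.76, of which 7 were at least 2-fold lower (7.52% of all measured genes that dim). Across the 33 genes, Pearson's r of the Dock8+/- level and the difference was -0.70 and Spearman's rho -0.69. The level is itself part of that difference, and against the mean level of both arrays r was -0.53. Over all measured genes the same r was -0.13. The points share the 2 arrays and are not replicates.

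The probes of a gene often gave different values. Of 12 collagen genes with several measured repeat-free probes, 9 had all of them below 0, 0 all above and 3 on both sides (Col1a2, Col26a1 and Col28a1). The between-probe SD was 1.18 for these genes and 0.60 for the 6177 genes with several measured probes. The spread between repeat spots of a probe was much smaller, at 0.04 in Dock8+/- and 0.05 in Dock8-/- (SD of log2 intensity). The brightest probe lay below the median of the dimmer ones in 9 of the 12. Over all 50 measured repeat-free collagen probes, 41 lay below 0, 24 were lower and 2 higher by 2-fold or more. The matching shares of all measured genes, by brightest probe, were 48.4%, 7.06% and 8.7%. Shares over all measured probes are not given here.

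**Figure D3:**
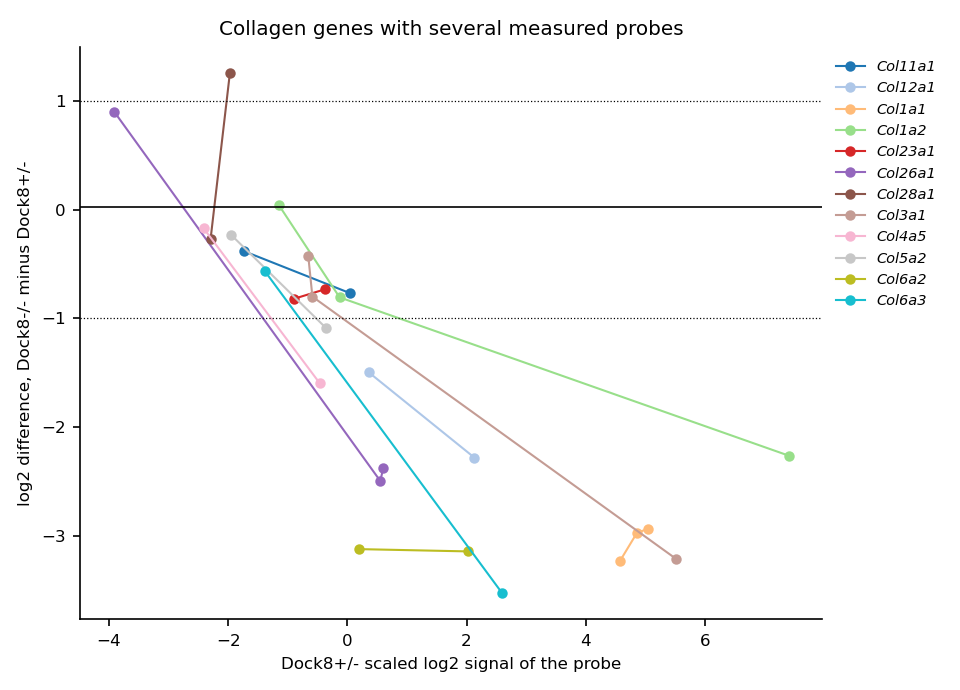
The log2 difference (vertical axis) of every measured probe of the 12 collagen genes with several such probes. The horizontal axis is the probe's scaled log2 signal in Dock8+/-, each point is a probe, lines join the probes of a gene, the solid line is the median of all measured genes and the dotted lines are 2-fold. The probes of Col1a1 lie close together at the bottom, whereas those of Col3a1 run from -3.21 to -0.42 and those of Col26a1 from -2.50 to 0.90.

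Triple-helix assembly needs enzymes and chaperones in the endoplasmic reticulum. Of 38 genes listed for collagen synthesis and maturation, 34 were measured (median -0.79). Among the 34, 16 (47.1%) lay 2-fold or more below the control, against 7.06% of all measured genes. As far above it lay 0, against 8.7%. These shares of all measured genes also stand beside the counts of each pathway list below. The prolyl and lysyl hydroxylation list, whose enzymes add the hydroxyl groups that stabilise the helix and serve cross-links, had 13 of 13 measured, 7 of them lower by 2-fold or more, and its median was -1.04. Crtap, a partner of prolyl 3-hydroxylase, had 1780 and 194, a difference of -2.14. P3h3, a family member of that hydroxylase, had a difference of -2.10, and the lysyl hydroxylase Plod1 had -1.36. P4hb, the shared subunit of prolyl 4-hydroxylase, had -1.35.

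In the list for glycosylation, folding and export, 11 of 11 were measured, 4 were at least 2-fold lower and the median was -0.47. Serpinh1 (HSP47), the chaperone dedicated to collagen, had 5385 and 445, a difference of -2.53. The prolyl isomerases Fkbp7 and Fkbp10 had -1.52 and -1.20. Sec24d, a coat protein of the vesicles that carry procollagen, had -1.51. Outside the cell, propeptides are cleaved and fibrils cross-linked, and 10 of 14 such genes were measured, 5 of them lower by 2-fold or more, and the median was -0.91. Loxl1, a lysyl oxidase, had 882 and 41.4, a difference of -3.35. Pcolce, the enhancer of procollagen C-proteinase, had 25396 and 2114, a difference of -2.52. Adamts2, which removes the amino propeptide, had -2.21, and the lysyl oxidase Loxl2 had -1.77.

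Receptors of collagen did not share a direction, with a median of -0.19 over 8 measured genes of 10. Lower by 2-fold or more were 3 (37.5%, against 7.06% of all measured genes). Higher by as much was 1 (12.5%, near the 8.7% of all measured genes). Itga11, a fibroblast integrin for fibrillar collagen, had 999 and 38.5, a difference of -3.63. Mrc2, which takes up collagen fragments, had -2.19 and the receptor kinase Ddr2 -1.43. Itga10, a collagen-binding integrin of cartilage, had 929 and 943, a difference of 1.08 that became -0.77 under spike-in scaling. Gp6, the platelet receptor, was read on the Dock8-/- array only, at 21.6 against 14.4. Of 8 genes for collagen breakdown, 5 were measured, 3 of them lower by 2-fold or more, and the median was -1.83. Mmp2, a gelatinase, had 814 and 38.8, a difference of -3.33. The protease Ctsk had -1.89 and Fap, a surface protease of activated fibroblasts, -1.83. Mmp8, the neutrophil collagenase, had 0.64, and Mmp13 had only a repeat probe.

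**Figure D4:**
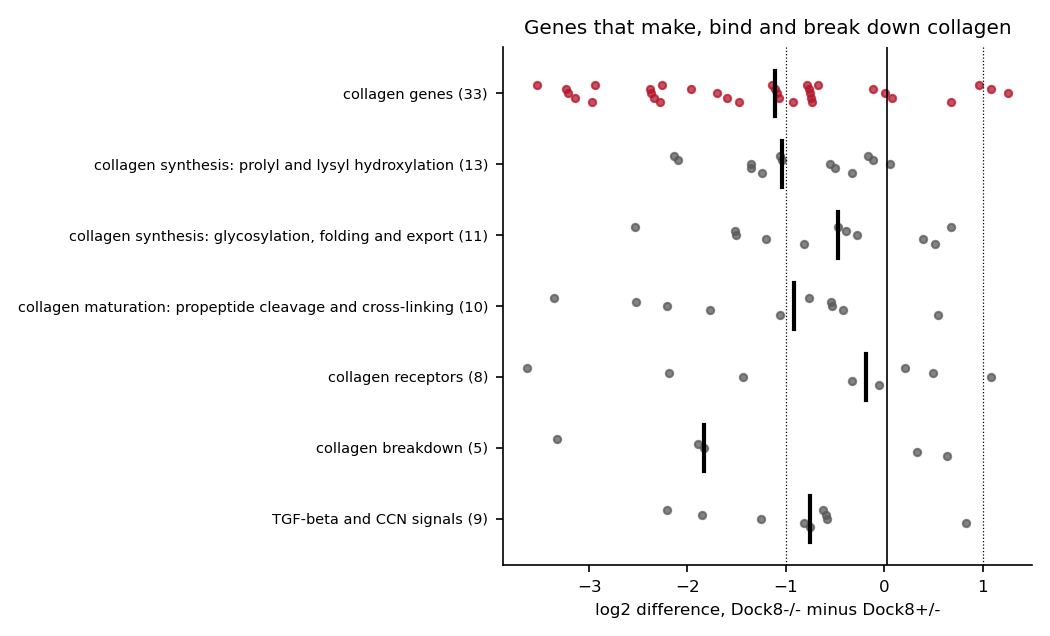
The log2 difference (Dock8-/- minus Dock8+/-) of every measured gene of the 6 pathway lists, with the collagens in red at the top; each row is a list with its number of measured genes, each point a gene and each short bar the list's median. The long solid line is the median of all measured genes and the dotted lines are 2-fold. Medians run from -1.83 for collagen breakdown to -0.19 for receptors.

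RNA of several cell types was present on both arrays, although the samples were labelled as neurons. All 12 DRG neuron markers were above background on both arrays, with a median of 0.00 and a summed scaled signal of 1539 in Dock8+/- and 1479 in Dock8-/-. The highest of them was the sodium channel Scn9a at 1.096 (-0.75 under spike-in scaling).

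Perineurial and meningeal markers, 7 of 7 above background on both arrays, had a median of -1.09, with Lypd2 at -3.80 and Foxc2 at -1.48. Their summed scaled signal went the other way, from 649 in Dock8+/- to 907 in Dock8-/-, since the sum is carried mostly by Ptgds, at 0.56. Of the 7, 5 lay below 0, where 48.4% of all measured genes did, and 2 above it, Ptgds and Slc2a1 at 0.79. Skeletal muscle markers were above background for all 8 in Dock8+/- and for 4 in Dock8-/-. The 3 measured had a summed scaled signal of 21.7 and 1.497. Tnnt3 was at -4.02 and Tnnc2 at -3.94. Acta1, Ckm, Mylpf and Actn3 were not above background on the Dock8-/- array, and Myh4 differed between its probes. Macrophage markers had a median of -1.54 and a summed scaled signal of 52.1 and 25.0. At least 2-fold lower were 7 of 8, against 7.06% of all measured genes. Adgre1 was at -1.92 and C1qa at -1.85. The part of these cells in the collagen values was not tested.

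Lists for vessel and glial cells, which basement membranes of a ganglion surround, had medians from -0.49 to 0.77. Endothelial markers were above background for all 8 in Dock8+/- and for 6 in Dock8-/-, where Tie1 and Tek were not. The 6 measured had a median of -0.31 and summed to 16.9 and 14.5. By the brightest probe, 0 of them were at least 2-fold apart in either direction, although Flt1, at -0.33, had another probe at 1.55. Of all measured genes, 7.06% were that much lower and 8.7% higher. Cdh5 was at -0.86 and Pecam1 at 0.62. Mural cell markers had a median of -0.49 and summed to 58.1 and 39.0, with Cspg4 at -1.52 and Kcnj8 at -0.87. Schwann cell markers had a median of -0.12 and summed to 748 and 924. Of the 9 measured, 5 lay below 0 and 4 above it. At least 2-fold lower was 1, Prx at -1.28, and 2 were at least 2-fold higher. Satellite glia markers had a median of 0.77 and summed to 420 and 363, with Sox2 at 1.52 (-0.33 under spike-in scaling) and Fabp7 at -2.21. Their part in the values of type IV collagen was not tested.

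**Figure D5:**
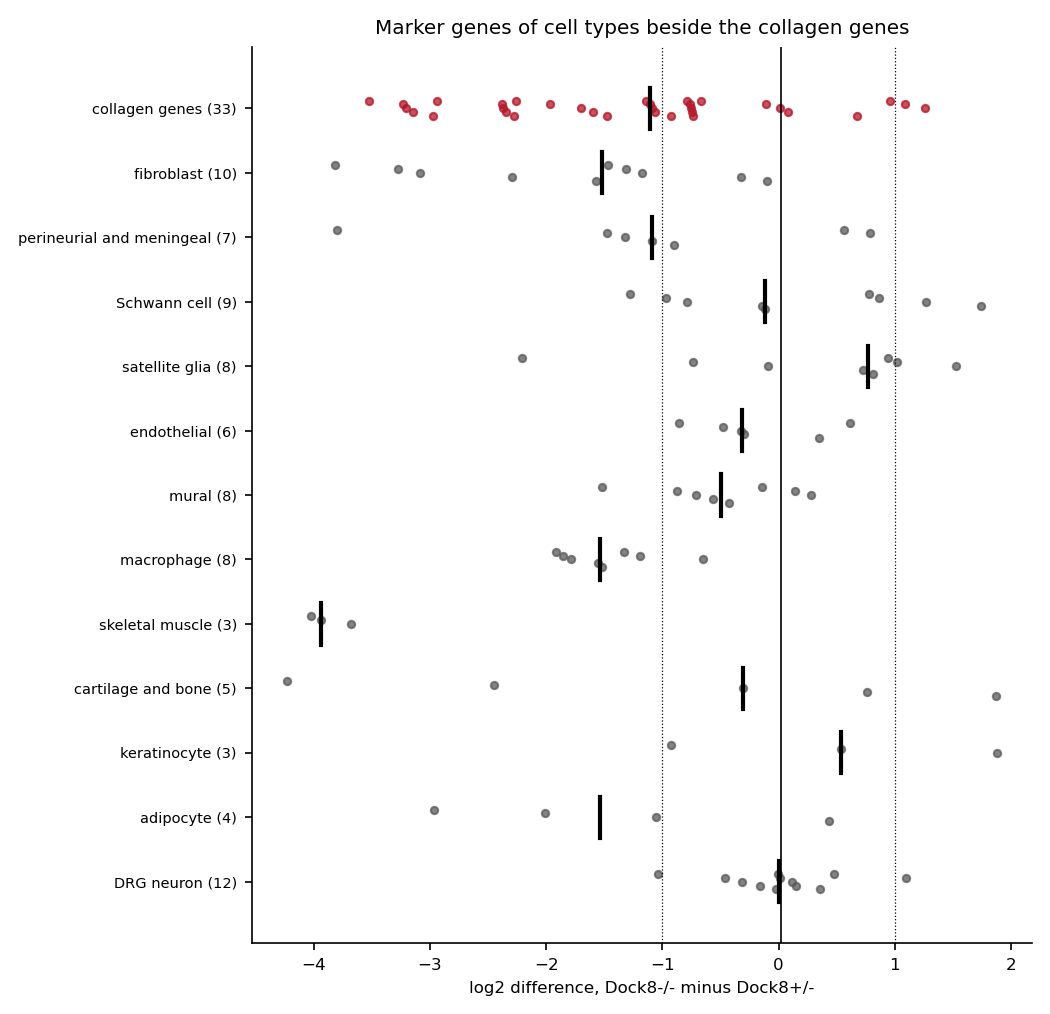
The log2 difference (Dock8-/- minus Dock8+/-) of each measured marker gene, by cell type, with the collagens in red at the top; each row is a list with its number of measured genes, each point a gene and each short bar the median. The long solid line is the median of all measured genes and the dotted lines are 2-fold. Skeletal muscle, macrophage, adipocyte and fibroblast lists have medians from -3.94 to -1.52, and the DRG neuron list has 0.00.

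Promoter sequence was available from RefSeq (assembly GRCm38.p6) for 35 of the 44 genes, as 38 entries. A total of 3 short motifs were searched on both strands in the 250 bases before the start. GGGCGG, the GC box, was present in 12 of 16 entries of genes at least 2-fold lower (75%) and in 6 of 12 entries of other measured collagen genes (50%), against 32.7% of all 32851 promoters. CCAAT was present in 31.2% and 41.7% of the same groups and in 33.8% of all promoters. TATAAA was present in 6.25% and 8.33%, and in 12.4% of all. The shares of the lower and the other collagen genes rest on 16 and 12 entries and were not tested. The promoters of Col1a2 and Col3a1, the brightest fibrillar chains with an entry, are printed with motif matches in capitals, since both genes were at least 2-fold lower and yet they shared none of these motifs.
Col1a2: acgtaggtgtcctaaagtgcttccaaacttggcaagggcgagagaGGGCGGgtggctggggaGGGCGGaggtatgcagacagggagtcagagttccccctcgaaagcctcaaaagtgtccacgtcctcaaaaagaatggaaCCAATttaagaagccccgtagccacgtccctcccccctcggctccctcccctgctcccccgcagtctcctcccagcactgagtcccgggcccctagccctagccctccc
Col3a1: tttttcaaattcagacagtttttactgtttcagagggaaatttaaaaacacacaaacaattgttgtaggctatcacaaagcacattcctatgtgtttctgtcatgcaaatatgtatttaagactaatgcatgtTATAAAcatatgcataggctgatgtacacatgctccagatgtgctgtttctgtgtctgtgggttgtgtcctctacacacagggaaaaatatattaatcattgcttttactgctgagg
They lie at chr6:4505368-4505617 and chr1:45311288-45311537, both on the plus strand. The Col1a2 window held GC boxes and a CCAAT, and that of Col3a1 a TATAAA. A match describes letters only.

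Dock8 itself could be read in Dock8+/- alone, by 1 of its 5 probes, at 20.5 against 6.87, so it gives little check of the genotype labels. The share of all probes above background was 56.9% in Dock8+/- and 50.7% in Dock8-/-. Both arrays lay on the same slide, and no spot was saturated (0 on each array).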

How the data were processed

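Total RNA was amplified, labelled with Cy3 and hybridised to 1-colour Agilent arrays, 1 per genotype, per the labels' protocols. The deposited scanner files hold processed spot intensity (linear), which the authors obtained from Agilent Feature Extraction 10.7.1.1 per the file headers (9.5.1.1 per the submitters' processing notes). Probe positions are on mm9, per the file headers. The authors' deposited value table correlated with the scanner intensities at 0.9997 and 0.9993 on the log2 scale, with a median of 27.9 in each column, and served as an alternative.

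Log2 intensity was averaged over a probe's spots, leaving out those flagged as outliers (47 on the Dock8+/- array, 40 on the Dock8-/- array), and the array's 75th percentile over non-control probes was subtracted. A probe was above background when the flag held for at least 0.5 of its spots. For genes read on 1 array, the bright value was set against the dim array's lowest signal above background (17.4 in Dock8+/-, 16.1 in Dock8-/-), or against the dim probe's own value where that was higher. Repeat probes hold at least 4 consecutive GA or GAA units. Array number limits the precision, and 2-fold describes size only.

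The members and lists were chosen with earlier results of these data known. Named are every measured collagen gene, up to 4 genes of each pathway list and up to 2 of each marker list with the largest absolute difference, of which 2 are not reported here. Other genes named beside a list were chosen after their values were seen. Gene symbols are the files' own. RefSeq accessions matched 69 of the 91 collagen probes, 0 of them to another gene. Alternatives were other scalings, normexp with offset 50 (limma 3.58.1, R 4.3.3), loess with a span of 0.3, other rules for probes and filters, and folds of 1.5 and 3. Python 3.11.15, numpy 2.4.6 and pandas 2.3.3 were used.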

Additional observations from a re-analysis of the deposited data

How the results depend on the processing

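No paired analysis was possible because there was a single array per genotype, and for that reason no array could be left out either. The count of collagen genes at least 2-fold lower (19) was 30 under spike-in scaling, where 87.7% of all measured genes were that low, and 10 with the filter on mean signal (no lower than the median), which left 13 collagen genes. All 19 stayed below 0 under every scaling, background and probe rule that kept all 33 genes. Still 2-fold lower were 14 of them with normexp, 17 with the mean and 15 with the median of a gene's probes. Of all measured genes, 4.66% were that low with normexp, 6.79% with the mean and 6.84% with the median. The count at least 2-fold higher (2) was 1 with quantile normalisation, loess, the authors' deposited value table, the mean, the median and the 3' probe, 0 with spike-in scaling, normexp, the mean-signal filter and a 3-fold limit, and 4 at 1.5-fold. For these counts of higher genes, the shares of all measured genes under the same settings are not given here. Spike-in scaling gave medians of -2.96 for all collagens, -3.38 fibrillar, -2.78 basement membrane and -3.55 other, and of -2.89 for hydroxylation, -2.32 for glycosylation, folding and export, -2.77 for maturation, -2.04 for receptors, -3.68 for breakdown and -2.61 for TGF-beta and CCN signals. Normexp gave -0.85 for all, -0.63 basement membrane, -1.09 other and -0.58 hydroxylation. The mean of probes gave -0.97 for all, -0.97 fibrillar, -1.23 other, -0.13 for fibrillar minus basement membrane, -0.84 hydroxylation and -0.70 maturation. The median of probes gave -0.85 for all, -0.80 fibrillar, -1.42 other, 0.033 for fibrillar minus basement membrane, -0.84 hydroxylation and -0.70 maturation. The mean-signal filter gave -2.26 for all, -2.26 fibrillar, -2.31 other, -1.35 for fibrillar minus basement membrane, -0.55 hydroxylation, -0.79 glycosylation, 0.22 receptors and -1.03 TGF-beta. The 3' probe gave -1.42 other and -0.55 hydroxylation, and loess -1.86 other. Without a filter the other class was -1.14 and receptors 0.078, and with 1 array above background all collagens were -1.31. Of 2 alternatives chosen after seeing the data, the brightest probe among those read on both arrays gave -1.42 for the other class, and the brightest with a RefSeq mRNA accession gave -0.79 for hydroxylation. Spike-in scaling moved every difference by -1.85, so all values above 0 but below the size of that shift changed sign. Among these were Col28a1 (-0.59 with spike-ins), Col4a3 (-0.76), Itga10 (-0.77), Sox2 (-0.33) and Scn9a (-0.75). Col28a1 also changed sign with the 3' probe (-0.27). Beyond the settings named, the cause was not tested. Dim probes limit Col4a3, Col4a4, Col20a1 and Col24a1, and no setting supplies the missing replicates.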

Other observations

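TGF-beta and CCN proteins are growth factors and matrix signals known to induce collagen. Of 9 listed genes of these signals, all 9 were measured. Lower by 2-fold or more were 3 of them, against 7.06% of all measured genes, and higher by as much 0, and the median was -0.76 against 0.02 for all measured genes. Wisp1, a matricellular CCN protein, had intensities of 248.6 in Dock8+/- and 25.7 in Dock8-/-, a difference of -2.21. Cyr61, another CCN protein, had 1015 and 135, a difference of -1.85, and the growth factor Tgfb3 had 2274 and 457, a difference of -1.25. Ctgf, the CCN family member most used as a fibrosis marker, lay on the other side, at 2940 and 2500, a difference of 0.83.

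Adipocyte markers had a summed scaled signal of 8.09 in Dock8+/- and 2.12 in Dock8-/- and a median of -1.53 over 4 measured genes of 6, with Cfd at -2.96 and Retn at -2.01. Adipoq and Plin1 were not above background on the Dock8-/- array. Of 6 keratinocyte markers, 3 were measured and summed to 13.4 and 17.9, with Krt14 at 1.88 and Krt10 at -0.92. Krt1 was above background on neither array.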
